A study of Eriocheir sinensis with 6 samples.

Results

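The gene gpr161 of the Chinese mitten crab (Eriocheir sinensis), identifier evm.TU.CM024164.1.176, was described here through the accessible chromatin linked to it. All rows of the authors' table of merged peaks that carry this gene identifier were taken, which gave 22 of the 104657 merged peaks, the table linking its peaks to 17908 genes in all. The name gpr161 is the one the study gives to this identifier, and the deposited files hold identifiers only. The assay was ATAC-seq, which reads out where a transposase, Tn5, can reach the DNA and leave its adapters, and the tissue was muscle of healthy farmed crabs at the pre-molt stage (D) and at the post-molt stage (A), which lie before and after the shedding of the old exoskeleton. Each stage had 3 libraries, with 1 crab behind each library, and the labels name no treatment and no engineered allele. The comparison asks where chromatin at this gene differed between the stages, and all changes are given as post-molt over pre-molt. The whole muscle was used, so a change in the mix of cell types and a change in accessibility per cell cannot be told apart. Because the files name no genes, the tissue was not checked against muscle markers.

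GPR161 is a receptor of the G protein-coupled family, whose members span the cell membrane and pass outside signals to G proteins. In mouse and zebrafish it sits in the primary cilium, where it keeps cyclic AMP and protein kinase A active and so holds the hedgehog pathway in its repressed state. Hedgehog is a secreted signal that directs tissue patterning and growth through the membrane protein Smoothened, and in mouse the receptor leaves the cilium once that pathway is switched on. Accessible chromatin marks promoters and distal elements that DNA-binding proteins can reach, and a gene may have many such elements, which need not act alike.

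The gene lies on the forward strand of sequence CM024164.1 of the published E. sinensis genome, positions 4971576 to 5026795, a length of 55.2 kb with 10 exons and 9 introns. Its 22 linked peaks spread over 79.0 kb, from position 4923457 to 5002407, and are numbered here from 1 to 22 along the strand. Peaks 1 to 9 are distal intergenic, between 47.9 and 3.96 kb upstream of the transcription start site. Peak 10 covers bases just inside the start and is the sole promoter peak. Peaks 11 to 18 lie in intron 1, peaks 20 and 21 in intron 2, and peaks 19 and 22 were annotated to exons 2 and 3. By class, 10 were intronic, 9 distal, 2 exonic and 1 a promoter peak, whereas 53.2% of all merged peaks were distal, 20.1% intronic and 19.4% promoter peaks. With 22 linked peaks the gene was among the 3.77% of genes with at least that many, the median gene having 3.

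The linked peaks were of ordinary width and rather weak. Their median width was 328.5 bp, with a range of 200 to 741 bp, against 347 bp for all merged peaks. The mean read count over the 6 libraries ranged from 12.7 in peak 1 to 166.7 in peak 2, with a median of 40.6 against 52.2 for all merged peaks. The libraries had 10992785 to 16985168 reads in merged peaks, which were 23.8% to 36.7% of the reads of a library. Pre-molt replicate 2 had the most reads in merged peaks and the highest share, the next highest share being 27.9% in pre-molt replicate 3. In the 22 linked peaks the pre-molt replicates 1, 2 and 3 held 1106, 1405 and 1139 reads, and the post-molt replicates 965, 1846 and 1231. Post-molt replicate 2 thus held the most reads at this locus, and in 17 of the 22 linked peaks it was the highest of the 3 post-molt libraries after scaling, against 34.5% of all merged peaks. Its part in the results was followed by leaving it out.

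Chromatin around gpr161 did not change as a block. Accessibility rose post-molt in 4 linked peaks and fell in 2, while 16 did not pass the test (edgeR quasi-likelihood test, adjusted p below 0.05 over all merged peaks). Over all merged peaks, 6.08% rose and 3.86% fell, 9.95% together, against 27.3% of the linked peaks, although peaks of the same locus in the same libraries are not independent of each other. The 2 peaks that fell were distal, those that rose were 2 distal peaks nearer the start and 2 intronic peaks. Of the peaks that rose, peaks 8, 9 and 16 had a peak call in post-molt libraries only. These peaks thus entered the merged set through the stage in which they tested higher, so their rise is partly set by that choice. The median log2 change of the linked peaks was 0.67 with a range of -1.55 to 2.17, against a median of -0.03 for all merged peaks. At an unadjusted p below 0.05, 7 linked peaks were higher and 4 lower, together 11, against 23.7% of all merged peaks in either direction. In 8 linked peaks every post-molt library lay above every pre-molt library and in 5 every one lay below, against 15% and 12.1% of all merged peaks. The other 9 overlapped between the stages. Of the 8, all but peak 20 had a peak call in post-molt libraries only. Of the 5, peaks 5 and 12 had a call in pre-molt libraries only. These counts, and those at an unadjusted p, are thus also partly set by how peaks entered the merged set.

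**Figure D1:**
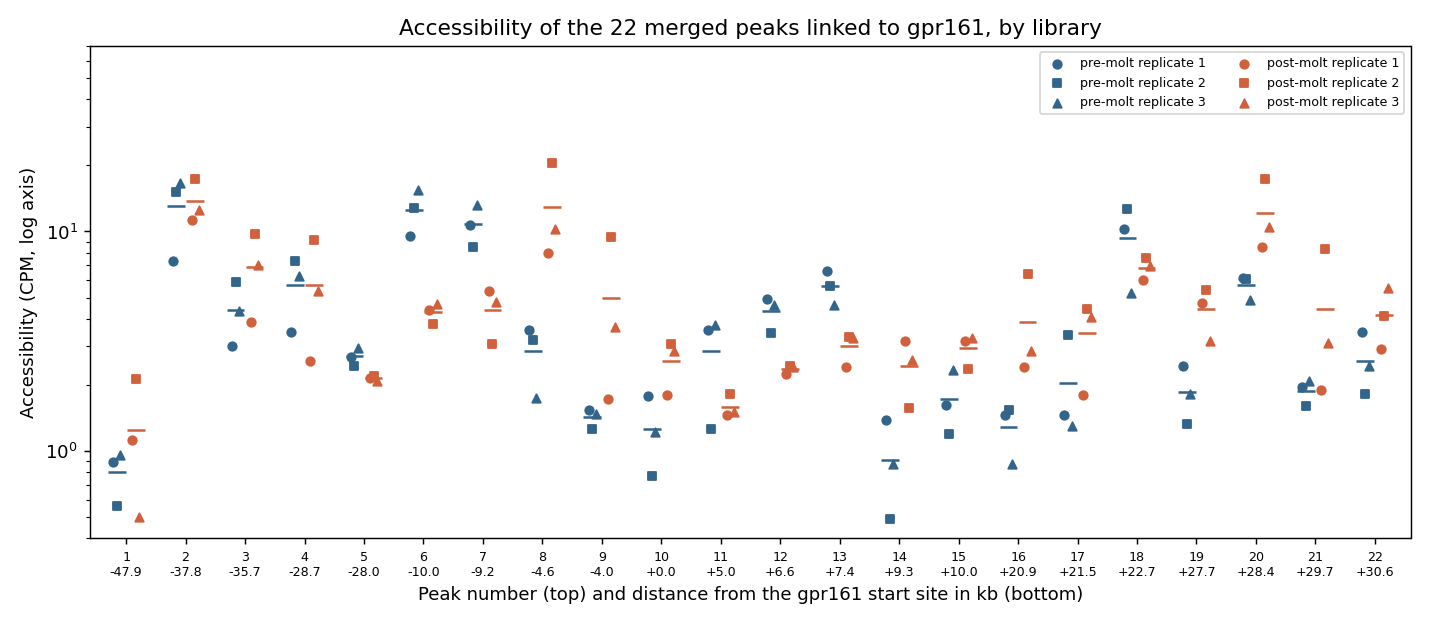
Accessibility of each of the 22 linked peaks in each library, in CPM (reads per 1000000 scaled reads in merged peaks) on a log axis, with peaks in order along the gene, the distance from the start site in kb under each number, and short lines at the stage means. Post-molt libraries sit below all pre-molt libraries in peaks 6 and 7 and above all of them in peaks 8 and 9.

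The falling pair lay about 10 kb upstream of the start site, with 381 bp between its peaks. Accessibility is given in CPM, the read count per 1000000 reads in merged peaks after scaling by trimmed mean of M-values (TMM) factors. Peak 6, positions 4961090 to 4961623 and 9.95 kb upstream, gave 9.49, 12.7 and 15.4 CPM in pre-molt replicates 1, 2 and 3, and 4.39, 3.78 and 4.68 CPM in post-molt replicates 1, 2 and 3. The stages did not overlap, and the post-molt libraries lay close together. The mean went from 12.5 ± 2.96 to 4.28 ± 0.456 CPM (SD, n = 3), a 2.92-fold fall (log2 change -1.55, SE 0.34, edgeR adjusted p = 0.0054). Peak 7, positions 4962005 to 4962350 and 9.23 kb upstream, gave 10.7, 8.54 and 13.2 CPM pre-molt and 5.34, 3.07 and 4.76 CPM post-molt, again without overlap. The mean went from 10.8 ± 2.34 to 4.39 ± 1.18 CPM, a 2.46-fold fall (log2 change -1.30, SE 0.35, edgeR adjusted p = 0.0194). Per length, both lay above the middle of the locus: over all libraries, peak 7 held 21.99 CPM per kb of peak and peak 6 held 15.8, against a median of 10.5 for the linked peaks.

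A second pair, on the side of the falling pair that faces the gene, moved the other way. Between them lay 3.87 kb without a merged peak. Peak 8, positions 4966222 to 4966962 and 4.61 kb upstream, is the widest linked peak and gave 3.57, 3.22 and 1.74 CPM in pre-molt replicates 1, 2 and 3, and 8.01, 20.4 and 10.3 CPM in post-molt replicates 1, 2 and 3. All post-molt libraries were above all pre-molt libraries, with replicate 2 far above the other two. From a mean of 2.84 ± 0.971 it rose to 12.9 ± 6.61 CPM, a 4.51-fold change (log2 change 2.17, SE 0.40, edgeR adjusted p = 0.00189), which was the largest of the 22. Peak 9, positions 4967307 to 4967617 and 3.96 kb upstream, gave 1.54, 1.26 and 1.48 CPM pre-molt and 1.72, 9.46 and 3.68 CPM post-molt. Post-molt replicate 1 was barely above the pre-molt libraries, so the rise had a wide spread, with means of 1.43 ± 0.148 pre-molt and 4.95 ± 4.02 CPM post-molt (log2 change 1.79, SE 0.51, edgeR adjusted p = 0.0267). Without post-molt replicate 2 its log2 change was 0.92 and did not pass (edgeR adjusted p = 0.437).

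The promoter peak itself was weak and did not pass the test. Peak 10, positions 4971586 to 4971802, starts 10 bp inside the gene. Pre-molt it held 22, 11 and 14 reads in replicates 1, 2 and 3 and post-molt 21, 39 and 34, which is 1.78, 0.77 and 1.22 CPM against 1.81, 3.07 and 2.84 CPM. The stages did not overlap, but post-molt replicate 1 and pre-molt replicate 1 were nearly level. The log2 change was 1.04 (SE 0.55, edgeR adjusted p = 0.259). Per length, this peak had 8.83 CPM per kb, and only 16.1% of the 20287 promoter peaks of the table had less, their median being 14.96 CPM per kb.

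Inside the gene, the changes that passed the test were rises. Peak 16, positions 4992460 to 4992848 in intron 1 and 20.9 kb from the start, gave 1.46, 1.54 and 0.87 CPM pre-molt and 2.41, 6.39 and 2.84 CPM post-molt. The stages did not overlap, and the level rose, with means of 1.29 ± 0.366 pre-molt and 3.88 ± 2.18 CPM post-molt (log2 change 1.58, SE 0.49, edgeR adjusted p = 0.042). Peak 20, positions 4999982 to 5000666 in intron 2 and 28.4 kb from the start, gave 6.17, 6.09 and 4.87 CPM pre-molt and 8.52, 17.3 and 10.4 CPM post-molt. It also did not overlap, and rose too, the means being 5.71 ± 0.726 pre-molt and 12.1 ± 4.64 CPM post-molt (log2 change 1.08, SE 0.35, edgeR adjusted p = 0.0487). Next to it, peak 19 over exon 2 gave 2.43, 1.33 and 1.83 CPM pre-molt and 4.73, 5.44 and 3.17 CPM post-molt, just outside the threshold (log2 change 1.26, SE 0.42, edgeR adjusted p = 0.0588).

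Several intronic peaks had values on the other side without passing the test. Peaks 11, 12 and 13, between 5.03 and 7.37 kb inside intron 1, gave log2 changes of -0.83, -0.87 and -0.91 with edgeR adjusted p of 0.345, 0.172 and 0.126. Their summed accessibility, a grouping made after the values were seen and not tested, was 15.1, 10.4 and 12.96 CPM in pre-molt replicates 1, 2 and 3 and 6.11, 7.57 and 7.18 CPM in post-molt replicates 1, 2 and 3. Only 1.58 kb further on, peak 14 gave 1.38, 0.49 and 0.87 CPM pre-molt and 3.18, 1.58 and 2.59 CPM post-molt (log2 change 1.42, edgeR adjusted p = 0.159). Peak 18, at 22.7 kb the intronic peak with the highest level per length, 23.4 CPM per kb, gave 10.2, 12.7 and 5.22 CPM pre-molt and 6.03, 7.57 and 6.93 CPM post-molt. Its stages overlapped (log2 change -0.46, edgeR adjusted p = 0.474). Along the gene the sign of the estimated change switched 6 times, giving 7 runs of 1 sign, and each run held peaks that did not pass.

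The far upstream peaks showed no change that passed the test. Peak 2, positions 4933286 to 4933818 and 37.8 kb upstream, held the most reads and the highest level per length of the locus, 25.1 CPM per kb. It gave 7.3, 15.1 and 16.7 CPM in pre-molt replicates 1, 2 and 3 and 11.3, 17.4 and 12.5 CPM in post-molt replicates 1, 2 and 3. The ranges overlapped (log2 change 0.08, SE 0.34, edgeR adjusted p = 0.923). Together the 5 peaks between 47.9 and 27.96 kb upstream summed to 26.7 ± 8.04 CPM pre-molt and 29.7 ± 9.98 CPM post-molt (SD, n = 3).

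**Figure D2:**
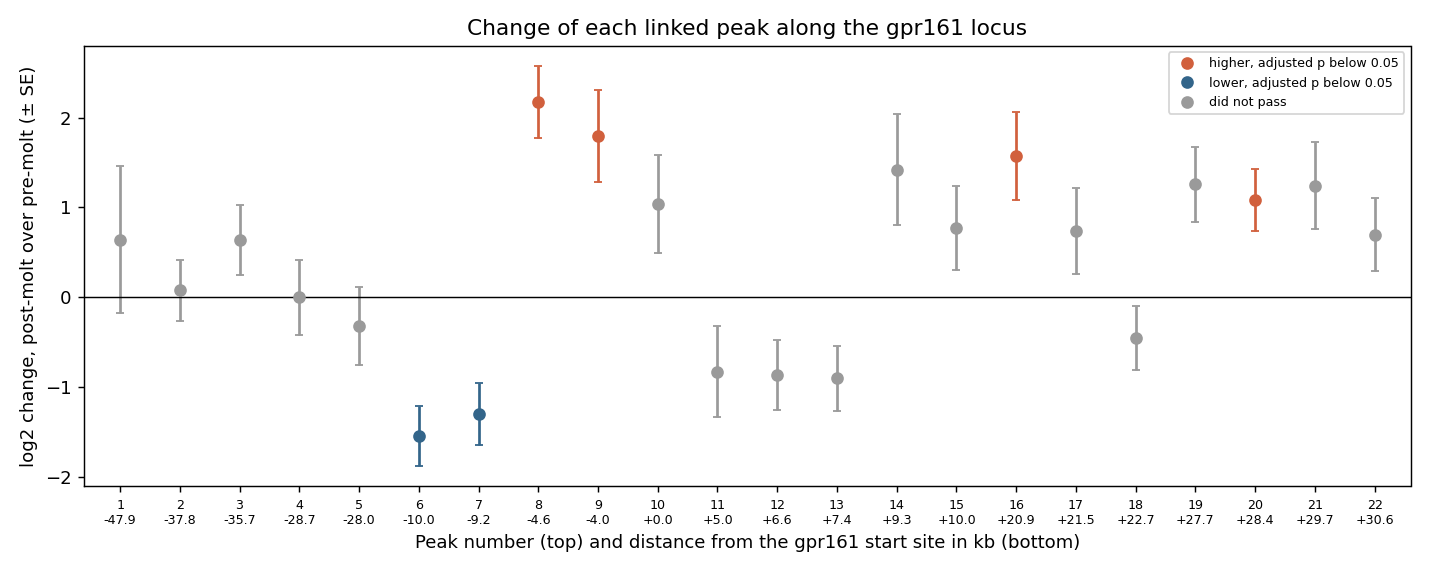
Log2 change of each linked peak, post-molt over pre-molt, with its standard error, in order along the gene with the distance from the start site in kb under each peak number. Peaks 6 and 7 lie at -1.55 and -1.30, peaks 8 and 9 next to them at 2.17 and 1.79, and grey peaks did not pass the test.

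The changes of the gpr161 peaks were unequal beyond the replicate error, by a test that does not ask for opposite directions. The log2 change of each peak was set against that of the other peaks linked to the same gene, a test in which library scaling cancels (edgeR diffSpliceDGE). Over the gene as a whole the changes were not equal (edgeR adjusted p = 6.84e-09), as in 15.1% of the 13920 genes with 2 or more peaks and in 43.8% of the 1287 genes with 15 to 30. By this p the gene ranked 122 of 13920. The test takes the peaks as independent values although they share 6 libraries, so such p-values may be too small. For single peaks, peaks 6 and 7 were lower than the rest of the gene by a log2 difference of -1.75 and -1.51 (edgeR adjusted p = 0.0023 and 0.0128), and peaks 8 and 9 were higher by 1.97 and 1.59 (edgeR adjusted p = 0.000707 and 0.0428). These 2 higher and 2 lower of 22 stand against 1.9% and 0.529% of all peaks tested in this way, 2.43% together. Those shares were not matched for the number of linked peaks per gene. Peaks 8 and 9 had a peak call in post-molt libraries only, so their higher values here are also partly set by how peaks entered the merged set. Without post-molt replicate 2, only peak 8 kept this call.

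How the adjacent pairs moved against each other can be read from raw reads without any scaling. Such a ratio shows a relative change only, not the direction of each peak. For each read in peak 7, peak 8 had 0.333, 0.377 and 0.132 in the pre-molt replicates 1, 2 and 3, and 1.5, 6.64 and 2.16 in the post-molt ones. Peak 7 thus held more reads in every pre-molt library and peak 8 in every post-molt library, but peak 8 is 741 bp wide and peak 7 is 346 bp. Per base of peak, the ratio of peak 8 to peak 7 was 0.156, 0.176 and 0.0614 pre-molt and 0.70, 3.1 and 1.01 post-molt, so the order was not reversed in post-molt replicate 1 and the peaks were nearly level in replicate 3. Against peak 6 the ratio of reads was 0.376, 0.253 and 0.113 pre-molt and 1.82, 5.4 and 2.2 post-molt. Per base it was 0.271, 0.182 and 0.0814 pre-molt and 1.31, 3.89 and 1.58 post-molt, so here the order was reversed on both scales. This pair of peaks was picked after its values were seen, so no test is given on the ratio.

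Few genes held called peaks of both directions. At least 1 linked peak higher and 1 lower was found in 332 genes, 16% of the 2071 genes with at least 2 changed peaks and 1.85% of all genes. Among the 1287 genes with 15 to 30 linked peaks the share was 10.4%, and 2.25% had at least 2 in each direction, as gpr161 did in the main fit. With 1 library left out, gpr161 kept at least 2 in each direction only without post-molt replicate 1. It also held fewer under some of the other alternatives given below. Among its peaks that rose, peaks 8, 9 and 16 had a peak call in post-molt libraries only, so this count is partly set by how peaks entered the merged set. The SD of the log2 change over the 22 gpr161 peaks was 1.05, against a median of 0.60 in genes with 15 to 30 peaks. Of those genes, 97.0% had a smaller SD. This SD includes the error of each estimate, which is larger at low counts, and the genes were not matched for reads. The linked peaks had a median of 40.6 mean reads, against 52.2 for all merged peaks.

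The summed accessibility of all 22 linked peaks adds rises and falls together, so it does not show the direction of single peaks. What the opposite changes and the replicate spread each did to the sum was not tested. With TMM factors taken from the gene sums, not from the peaks, it was 94.7, 91.2 and 94.8 CPM in pre-molt replicates 1, 2 and 3. In post-molt replicates 1, 2 and 3 it was 83.5, 147.3 and 107.9 CPM. The post-molt libraries enclosed the pre-molt ones, with means of 93.6 ± 2.08 pre-molt and 112.9 ± 32.2 CPM post-molt (SD, n = 3). With the TMM factors of the peaks, used elsewhere here, the means were 95.7 ± 5.2 and 110.5 ± 31.9 CPM. The gene sum did not pass (log2 change 0.27, SE 0.24, edgeR adjusted p = 0.528), against 11% of all genes that did. Without post-molt replicate 2 the log2 change was 0.03, and without post-molt replicate 1 it was 0.45 (edgeR adjusted p = 0.972 and 0.423). With the promoter peak alone it was 1.06 (edgeR adjusted p = 0.248).

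Peaks had also been called library by library. The authors' MACS2 lists held a peak at 8, 10 and 10 of the 22 linked peaks in pre-molt replicates 1, 2 and 3, and at 8, 11 and 13 in post-molt replicates 1, 2 and 3. Over all merged peaks the lists held a peak at 43.4%, 50.3% and 48.2% in the pre-molt libraries and at 42.7%, 47.8% and 45.4% in the post-molt libraries. Of the linked peaks, 10 had a peak call in post-molt libraries only, 3 in pre-molt libraries only and 9 in both stages. Over all merged peaks, 25.8% were called in post-molt libraries only and 28.4% in pre-molt libraries only. Peak 8 was called in every post-molt library, with a MACS2 fold enrichment of 4.9, 5.14 and 4.02 in replicates 1, 2 and 3, and in no pre-molt library. Peak 12, in intron 1, was called in every pre-molt library, with 5.53, 4.96 and 5.2, and in no post-molt library, although its counts did not pass the test. The falling pair was called in every pre-molt library, with fold enrichment from 7.09 to 11.4, and post-molt only by replicate 3 for peak 6 (2.82) and by replicate 1 for peak 7 (3.75). The promoter peak was called in post-molt replicate 3 alone (3.78). Only peaks 2 and 18 were called in all 6 libraries and 8 of the 22 in 1 library, against 19.1% and 42.3% of all merged peaks. A missing call does not show closed chromatin. Calls and counts come from the same reads, so the calls are not separate evidence of the changes.

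**Figure D3:**
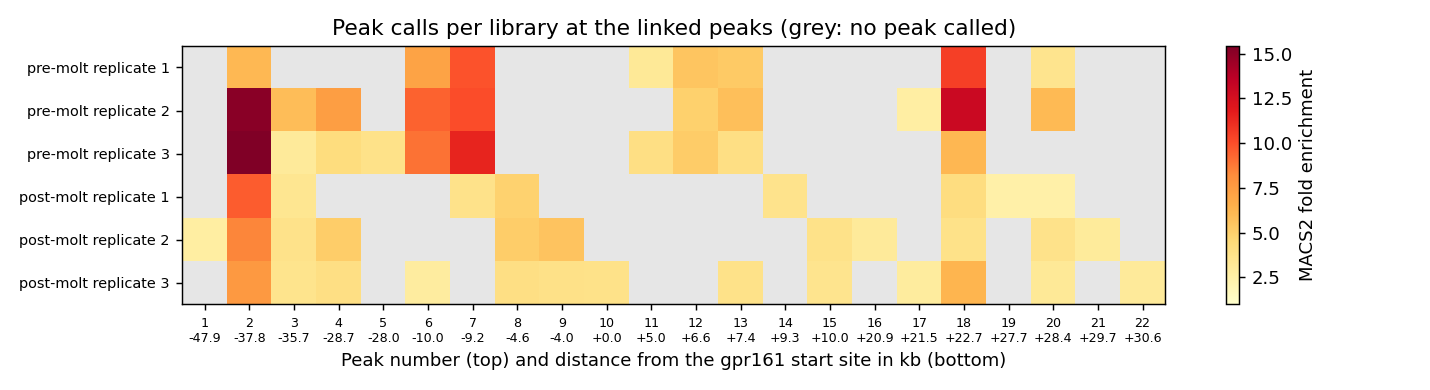
Peak calls of each library at the 22 linked peaks, coloured by the MACS2 fold enrichment of the strongest overlapping region, with grey where the library's list held no peak. Peaks 2 and 18 are coloured in all 6 libraries, peak 8 in the 3 post-molt libraries and peak 12 in the 3 pre-molt libraries.

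Of the 6 changed peaks, peaks 6 and 8 were the steadiest. They kept their call under all 15 alternatives, with edgeR, limma or DESeq2 adjusted p of at most 0.0399 and 0.0243. Peak 7 kept it under 12, peak 9 under 8, peak 16 under 4 and peak 20 under 3. Without post-molt replicate 2 only peaks 6 and 8 were called (edgeR adjusted p = 0.0399 and 0.0212), with 0.13 for peak 7, 0.437 for peak 9, 0.39 for peak 16 and 0.331 for peak 20. The number of peaks that rose was 1 also without pre-molt replicate 1, 2 or 3, 2 without post-molt replicate 3, and 5 without post-molt replicate 1, when peak 21 passed too. The number that fell was 1 when replicate 3 of either stage was left out, and then peak 7 had an edgeR adjusted p of 0.0961 (pre-molt) and 0.0562 (post-molt). Among the peaks against the rest of the gene, only peak 8 was called without post-molt replicate 2 (edgeR adjusted p = 0.0246). Peaks 6, 7 and 9 then had 0.102, 0.359 and 0.74. With replicate 3 of either stage left out, peaks 6 and 8 were called. Peak 9 kept this call with a filter on low counts (0.0433) and without post-molt replicate 1 (0.0291), and in no other alternative.

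**Figure D4:**
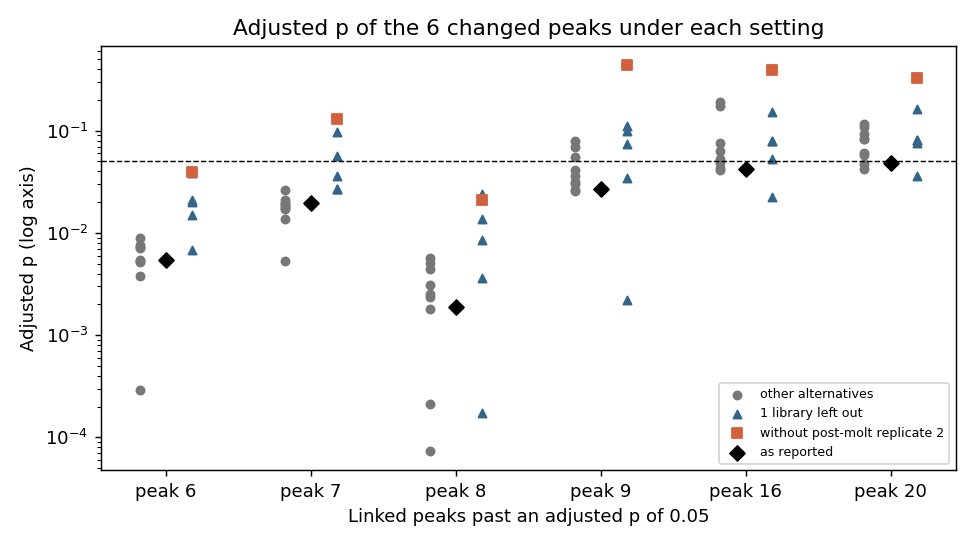
Adjusted p on a log axis for the 6 changed peaks as reported (black), without post-molt replicate 2 (orange squares), with any other library left out (blue triangles) and under the other alternatives (grey), with the threshold of 0.05 dashed. Peaks 6 and 8 stay below the line throughout, and peaks 7, 9, 16 and 20 cross it without post-molt replicate 2.

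The surrounding chromatin held no peak with a negative change. Within 50 kb of the outermost linked peaks there were 16 merged peaks linked to 5 other genes, with log2 changes from 0.10 to 1.90. Of these, 2 rose, none fell, and 12 had an unadjusted p below 0.05, against 6.08%, 3.86% and 23.7% of all merged peaks. The linked peaks end 24.4 kb before the end of the gene, but chromatin was accessible there too: 4 merged peaks inside the gpr161 interval were linked by distance to evm.TU.CM024164.1.177, a gene on the opposite strand (5022813 to 5035812) that overlaps the end of gpr161. Of the 17 merged peaks inside the interval, 13 are thus linked to gpr161 and 4 are not. One of the latter, at positions 5017831 to 5018301 in intron 9 of gpr161, rose (log2 change 1.55, SE 0.47, edgeR adjusted p = 0.0392). It held 29, 22 and 18 reads in the pre-molt libraries and 34, 126 and 37 in the post-molt ones. Post-molt replicate 2 thus stood far above the other libraries, and the fit without it was not examined for this peak. The other 3 did not pass, with log2 changes from 0.24 to 1.53.

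Among the 7 genes with at least 2 linked peaks that the study names as G protein-coupled receptors, gpr161 and the neuropeptide receptor FMRFaR were those with called peaks in both directions. FMRFaR had 6 higher and 1 lower of 19. The somatostatin receptor SSTR2 and moody, a receptor of the glial barrier in flies, had lower peaks only, 7 of 17 and 11 of 22. The glutamate receptor GRM7, the methuselah-type mth2, and Kpna6, named for an importin of the nuclear transport machinery, had higher peaks only, 6 of 9, 7 of 11 and 3 of 9. Over all merged peaks, 6.08% rose and 3.86% fell. Of these 7 genes, 5 passed the test of unequal changes within the gene, against 15.1% of all genes tested. Among genes with 15 to 30 linked peaks the share was 43.8%. These libraries entered the study's choice of the genes, so the counts are not independent evidence.

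The genes whose summed accessibility was most like that of gpr161 over the 6 libraries shared its high value in post-molt replicate 2. Among 13590 genes with at least 100 reads per library on average, the highest Pearson r of log2 CPM was 0.99 for evm.TU.CM024160.1.335, and 0.99 for evm.TU.CM024140.1.275. The former gave 13.1, 11.8 and 14.1 CPM pre-molt and 11.9, 43.0 and 19.9 CPM post-molt. The files give no names for these genes, and with 6 points set largely by 1 library the likeness is a description only.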

How the data were processed

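Muscle of 6 crabs, 3 pre-molt and 3 post-molt, was profiled by ATAC-seq, with groups and replicate numbers taken from the sample titles. Peak names inside the lists carry other library numbers than the titles, so lists were assigned by the sample record that holds them. The authors aligned reads of 150 bases with BWA and called peaks per library with MACS2, as the submitters' processing notes name them. The sources used here do not say how reads were assigned to merged peaks. Peak calling for the molt libraries kept all duplicates, per the study's methods, and if the counts did too, PCR copies count as reads. The authors' deposited table gives whole-number read counts per merged peak, a scaled score that equals count plus 1 per 1000000 reads, and a fold enrichment ratio over a uniform background. The deposited MACS2 lists give a score, a fold enrichment and the −log10 of p-value and q-value. The table's log2 fold change and p-value columns, the authors' own comparison of the stages, were not used. Positions are 1-based, and the table calls peaks promoter peaks up to 3000 bp from a start site.

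Counts of all 104657 peaks were tested with edgeR 4.0.16 (R 4.3.3), a quasi-likelihood fit of stage with TMM factors and without a filter on low counts, and Benjamini-Hochberg adjustment over all peaks at 0.05. Standard errors came from the change and its F statistic. Counts summed per gene were fitted likewise, and peaks were set against the rest of their gene with diffSpliceDGE. Alternatives used DESeq2 1.42.0, limma 3.58.1, other scalings, a filter, and 1 library left out. Library totals were 41050903 to 51652893 reads. Chi-square per degree of freedom between libraries of a stage was at least 5.66, so all 6 were counted separately. The fits were tested on simulated data. Full values were given for changed peaks, promoter peaks, the peak with the most reads, the largest changes, and peaks past the within-gene test. Peaks 11 to 14, 18 and 19 were added after their values were seen. Members and lists were chosen with earlier results of these data known. One gene of the receptor list is not reported here.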

Additional observations from a re-analysis of the deposited data

How the results depend on the processing

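The number of linked peaks that rose was 4 as reported and 2 with library totals or median centring, 1 with loess offsets, 1 with limma on log2 fold enrichment at a pseudocount of 0.1 or 1, and between 1 and 5 with 1 library left out. The number that fell was 2 in all these settings except with 1 library left out, when it was between 1 and 2. The number of peaks that differed from the rest of the gene was between 1 and 4 with 1 library left out. The gene as a whole passed that test in all 9 alternatives, with an adjusted p from 1.74e-08 to 0.000128 with 1 library left out. The gene sum did not pass in any of its 16 alternatives, with a log2 change between 0.03 and 0.45 with 1 library left out. Median centring moved the median log2 change of all merged peaks from -0.03 to -0.16. Peak 2, not called in any setting, changed sign with library totals (-0.0065) and median centring (-0.074), and lay between -0.22 and 0.29 with 1 library left out, negative when pre-molt replicate 1 (-0.22) was left out, and likewise for post-molt replicate 2 (-0.13). A stricter threshold of 5 on −log10 q left 41 of the 60 peak calls at linked peaks, and an overlap of at least 50% of the merged peak left 54.

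With the replicate number as a block, 2 linked peaks rose and 2 fell, with an adjusted p of 0.0506 for peak 16 and 0.0826 for peak 20, and 3 peaks differed from the rest of the gene. The numbers do not pair the crabs: deviations of same-numbered libraries correlated at -0.09, -0.10 and -0.03 over all peaks, and no library correlated best with its own number.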
